A study of Rattus norvegicus with 4 samples.

Results

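The secreted proteinases that cut the extracellular matrix, the inhibitors that hold them in check and the enzymes that crosslink collagen and elastin were examined in the postnatal rat carotid body (CB), the arterial chemoreceptor organ that senses the oxygen of the blood. The genes were taken by symbol alone and comprised the matrix metalloproteinases (Mmp), the ADAMTS proteinases and ADAMTS-like proteins (Adamts, Adamtsl), the tissue inhibitors of metalloproteinases (Timp) and the lysyl oxidases (Lox, Loxl). Of 32883 genes listed, 54 belonged to these families, namely 22 Mmp, 19 Adamts, 4 Adamtsl, 4 Timp and 5 lysyl oxidase genes. CBs of Sprague Dawley rats were compared between neonates (day 5, 2 libraries) and adults (day 21, the weaning age, 2 libraries). The labels name no treatment or genetic change at either age. Each library was made from whole CBs pooled from 6 pups or 3 adults, by the series' design text. Larger pools and 3 biological replicates are named in the study's methods, against the 2 libraries per age used here. By the same text, part of the litter was left to grow until day 21.

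Matrix metalloproteinases are zinc enzymes made as inactive precursors that, once activated, cleave collagens and other matrix proteins, and some of them sit in the cell membrane. ADAMTS proteinases are secreted relatives that trim procollagen or cut large proteoglycans such as versican and aggrecan, and ADAMTS-like proteins share their binding domains but lack the catalytic one. TIMPs bind the active site of matrix metalloproteinases, and Timp3 also inhibits ADAMTS proteinases. Lysyl oxidases form the crosslinks that make collagen and elastic fibres insoluble.

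Of the 54 genes, 39 reached at least 1 CPM (counts scaled to a common library size) in 2 or more libraries and so could be tested, and 15 did not. Levels are given in CPM after TMM scaling, and a log2 fold change is neonate over adult, so that a negative value is a higher level in adults. SE is its standard error. A gene was called at a Benjamini-Hochberg adjusted p under 0.05 over all genes tested and a fold change of at least 2. Between neonates and adults 8 genes of these families were called by edgeR's quasi-likelihood test, Timp3, Timp4, Adamts5, Adamts12, Adamts15, Adamts17, Adamtsl3 and Loxl2, and all 8 were higher in adults. These are 20.5% of the 39 tested, while 20.8% of all 13838 genes tested were called. By direction, 13.2% of all genes tested were called as higher in adults and 7.68% as higher in neonates. No family member was called as higher in neonates by edgeR, DESeq2 or limma-voom, and none reached 2-fold in that direction at an unadjusted p under 0.05 in any of the 3. This count of 0 became 1 without neonate replicate 2, when Adamtsl2 reached 1.02 on the log2 scale, and 1 without adult replicate 2, when Adamts14 reached 1.02.

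Without a limit on fold change, 24 of the 39 passed an adjusted p under 0.05 in edgeR's test, or 61.5%, against 62.3% of all genes tested. Of the 24, 17 were higher in adults and 7 in neonates, and over all genes the shares were 31.1% and 31.2%. The median log2 fold change of the 39 genes was -0.24, beside -0.0029 over all genes tested. In 30 of the 39, or 76.9%, both neonatal libraries lay on one side of both adult libraries, while this was so for 83.0% of all genes tested. All 8 called genes were without overlap between ages. Scaled to library size alone, the median of all genes moved to -0.25, and the 24 family members that then passed were split into 20 higher in adults and 4 in neonates, so that the share higher in neonates was 16.7% in place of 29.2%.

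**Figure D1:**
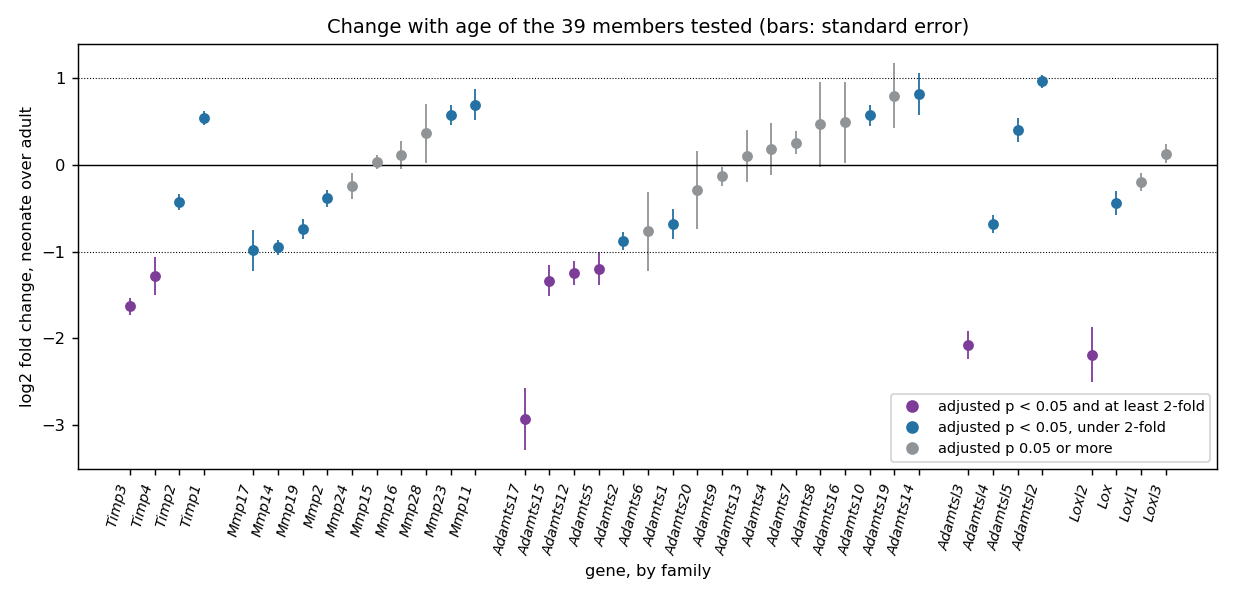
Log2 fold change (neonate over adult) of the 39 genes tested, grouped by family and ordered by value, with bars for the standard error and dotted lines at 2-fold. The 8 purple points, called genes, all lie below the lower dotted line, and no point lies above the upper one.

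Totals per library ran from 36286191 to 39476110 estimated counts, and 3 counts, taken as the floor of detection, corresponded to 0.0734 CPM at the lowest and 0.0843 CPM at the highest, with counting error alone considered. Markers of the CB's own glomus cells were present at both ages, with Th, which makes the precursor of dopamine, at 1017 and 835 CPM in neonates and 1403 and 1132 CPM in adults. Of the 5 glomus markers, 3 passed toward adults, Th among them, and 1 toward neonates (Chga, at a log2 fold change of 0.80). Chga had 1720 and 791 CPM in neonates and 784 and 659 CPM in adults. Its neonatal excess thus lay mostly in replicate 1. The 5 markers summed to 2950 and 1840 CPM in neonates and 2600 and 2140 CPM in adults. In neonate replicate 1 Chga was the largest part of this sum. Parathyroid RNA was seen in the neonatal libraries. Pth, the parathyroid hormone gene, was at 1769 CPM in replicate 1 of the neonates and 208 CPM in replicate 2 against 0 counts in adults. Neither neonatal library was free of it. Its part in the results, the Chga level and the glomus sum among them, was not tested. Of 5 fibroblast markers, 4 (Dcn, Pdgfra, Dpt and Lum) were higher in adults at an adjusted p under 0.05 in edgeR's test, and the median of the 5 log2 fold changes was -0.83. Their summed level was 6270 and 7620 CPM in neonates and 8420 and 8870 CPM in adults. Of 6 smooth muscle and pericyte markers 3 were higher in adults and 1 in neonates, at 1210 and 1250 CPM in sum against 1980 and 2090 CPM, and none of either list was at 0. The part of these cell types in the results was not tested. In whole CBs a change in the number of cells of a type and a change in RNA per cell cannot be told apart.

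The adult libraries were also not alike. Of the 39 genes tested, 34 (87.2%) had a lower level in adult replicate 1 than in adult replicate 2, while this held for 50.8% of all genes tested, and it held for all 8 called genes. Between the neonatal libraries, 29 of the 39 (74.4%) were lower in replicate 1, against 49.5% of all genes.

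All 4 Timp genes passed an adjusted p under 0.05, as did 62.3% of all genes tested, and they went in different directions. Timp3, whose product stays bound to the matrix and also inhibits ADAMTS proteinases, had 74.5 and 85.5 CPM in neonates and 235 and 260.2 CPM in adults. The adult libraries were both well above the neonatal ones, 3.10-fold on average, the log2 fold change being -1.63 (SE 0.095, adjusted p = 4e-06 in edgeR's test). Timp4 moved the same way, at 5.39 and 4.44 CPM in neonates and 10.5 and 13.4 CPM in adults, or 2.43-fold (log2 fold change -1.28, SE 0.22, adjusted p = 0.00085 in edgeR's test). Timp2, which together with Mmp14 activates the precursor of Mmp2, had 111 and 129 CPM in neonates and 156 and 167 CPM in adults. Its difference was smaller, the log2 fold change being -0.43 (SE 0.091, adjusted p = 0.0031 in edgeR's test), with no overlap between ages. Timp1, a widely inducible inhibitor, went the other way, at 86.8 and 89.7 CPM in neonates and 59.0 and 61.8 CPM in adults, the log2 fold change being 0.55 (SE 0.082, adjusted p = 0.00043 in edgeR's test). Timp1 stayed higher in neonates when libraries were scaled to their size alone, at a log2 fold change of 0.30.

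**Figure D2:**
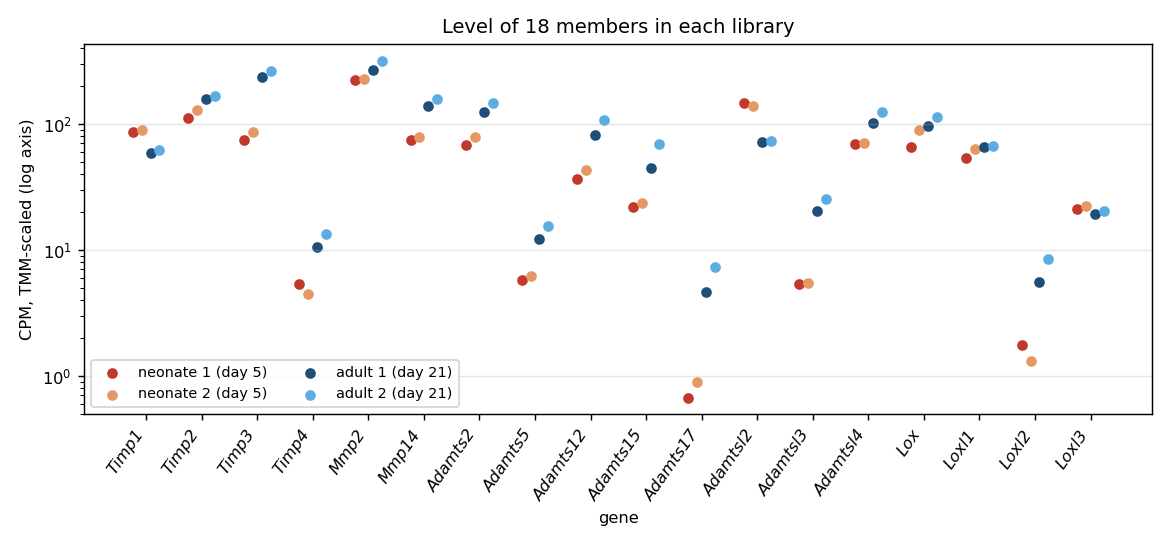
Level of 18 genes of the families in each of the 4 libraries, in TMM-scaled CPM on a log axis, with neonatal libraries in red and orange and adult libraries in dark and light blue. Timp3, Timp4, Adamts17, Adamtsl3 and Loxl2 show a wide gap between the ages, whereas the points of Loxl1 and Loxl3 lie close together, and Timp1 and Adamtsl2 are lower in adults.

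None of the 10 Mmp genes tested was called, beside 20.8% of all genes tested. An adjusted p under 0.05 was passed by 6 of them, 4 toward adults and 2 toward neonates. These 6 were 60.0%, near the 62.3% of all genes tested. Mmp14, the membrane-bound enzyme that cleaves fibrillar collagen and activates Mmp2, had 74.0 and 79.2 CPM in neonates and 138 and 158 CPM in adults, 1.93-fold (log2 fold change -0.95, SE 0.089, adjusted p = 3.6e-05 in edgeR's test). Both adult libraries were thus above both neonatal ones, just short of 2-fold, and without adult replicate 1 the log2 fold change was -1.04. Mmp17, anchored to the membrane by a lipid, had 4.13 and 5.03 CPM in neonates and 7.93 and 10.2 CPM in adults. Its log2 fold change was -0.98 (SE 0.23, adjusted p = 0.0054 in edgeR's test). Under the alternatives this ran from -1.23 with library size alone, past 2-fold, to -0.79 without adult replicate 2, where Mmp17 no longer passed. The other 3 enzymes listed here as membrane-anchored, Mmp15, Mmp16 and Mmp24, overlapped between ages and did not pass. Their log2 fold changes were 0.03, 0.12 and -0.24. Mmp23, described below, was placed in another list.

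Mmp2, the gelatinase that degrades denatured collagen and basement membrane, had 221 and 225 CPM in neonates and 266 and 316 CPM in adults. Its adult excess was 1.31-fold, the log2 fold change being -0.38 (SE 0.096, adjusted p = 0.0073 in edgeR's test). Mmp19 was higher in adults as well, the log2 fold change being -0.74 (SE 0.12), with 12.9 and 14.4 CPM against 22.5 and 23.0 CPM. Mmp11, a stromelysin that is activated inside the cell by furin, was higher in neonates, at 14.4 and 14.5 CPM against 7.61 and 10.2 CPM (log2 fold change 0.70, adjusted p = 0.0084 in edgeR's test), and its adjusted p was 0.067 without adult replicate 1 and 0.060 with library size alone. Mmp23 was higher in neonates too, at 42.0 and 46.1 CPM against 26.8 and 32.2 CPM, or 0.58 on the log2 scale. Mmp28, at most 3.57 CPM, overlapped between ages and its estimated counts were not whole, as happens where reads are split between genes.

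The remaining 12 Mmp genes were under the filter, and 10 of them lie side by side in the genome. In the RefSeq gene table of the assembly GRCr8, Mmp13, Mmp12, Mmp1b, Mmp3, Mmp1, Mmp10, Mmp8, Mmp27, Mmp20 and Mmp7 follow each other in this order with 0 other protein-coding genes between them. None of the 10 was tested, and the highest count that any of them had in a library was 49. Mmp13, a collagenase of cartilage and bone, had 49 and 31 counts in neonates and 0 in both adult libraries, so it was at least 15.0-fold higher in neonates against a floor of 3 counts per library. Mmp27 showed the opposite, with 0 counts in both neonatal libraries and 25 and 47 in adults, at least 10.7-fold higher in adults against the same floor. With no filter on low counts both were called in edgeR's test, with adjusted p of 0.00084 for Mmp13 and 0.0018 for Mmp27. Col2a1, a defining collagen of cartilage, was at 16.5 and 22.0 CPM in neonates and 1.20 and 2.69 CPM in adults, while Acan, the cartilage proteoglycan aggrecan, went the other way, at 0.674 and 0.444 CPM against 2.94 and 2.21 CPM. Col9a1 stayed under 1 CPM in every library and Matn1 was at 0 in all of them. The 5 cartilage markers summed to 18.3 and 24.6 CPM in neonates and 5.65 and 6.41 CPM in adults, most of the neonatal sum being Col2a1. The part of cartilage cells in the counts of Mmp13 was not tested.

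Mmp8, the collagenase of neutrophils, had 23 and 25 counts in neonates and 3 and 8 in adults, and Mmp9, the second gelatinase, which lies elsewhere, had 16 and 23 against 6 and 12. Mmp12, the elastase of macrophages, had 19 and 21 counts in neonates and 9 and 3 in adults. All 3 were higher in both neonatal libraries, but none passed in the fit with no filter on low counts, with adjusted p of 0.062, 0.27 and 0.13 from edgeR. The 5 neutrophil markers summed to 7.25 and 5.58 CPM in neonates and 0.783 and 1.48 CPM in adults. Only 2 of the 5 were tested, S100a8 and S100a9, and both passed toward neonates. Mpo was at 3.26 CPM in neonate replicate 1 and 0.305 CPM in replicate 2. The 5 macrophage markers, in contrast, summed to at most 56.4 CPM in either neonatal library and at least 99.5 CPM in either adult one. The part of these cells in the counts was not tested. Mmp1b, Mmp10 and Mmp20 had 0 counts in all libraries, and Mmp1, Mmp3, Mmp7 and Mmp21 had at most 3.

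**Figure D3:**
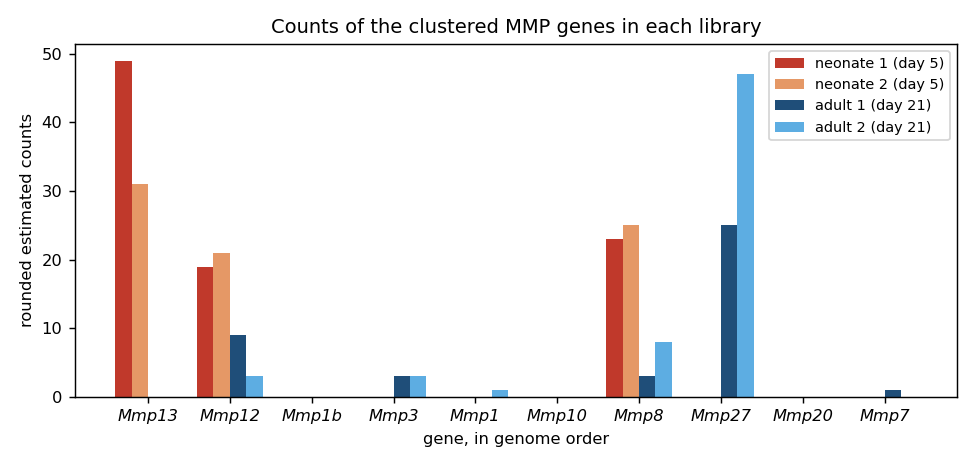
Rounded estimated counts of the 10 clustered Mmp genes, in genome order, with 1 bar per library. Mmp13 has bars for the neonatal libraries alone and Mmp27 for the adult libraries alone, while Mmp8 and Mmp12 have taller bars in neonates.

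Promoter sequences from RefSeq (GRCr8) were found for 41 of the 54 genes, not for Lox, Loxl2, Mmp2, Mmp9, Mmp14, Mmp16, Mmp17, Mmp19, Adamts5, Adamts8, Adamts15, Adamts16 or Adamts19. The 250 bases before each start were searched on both strands for the AP-1-type motif TGANTCA, which is its own reverse complement, the TATA motif TATAAA and the GC box GGGCGG. Matches of different motifs were allowed to overlap. TGANTCA and TATAAA occurred together in 7 of the 10 clustered genes (70.0%), in none of the 27 tested genes with a sequence, and in 1.19% of the 27457 genes with a promoter in the table. The GC box was in none of the 10 clustered genes, in 17 of the 27 tested genes (63.0%) and in 33.5% of all genes with a promoter. A match is a run of letters and not a binding site, and these counts were not tested. Sequences are shown for 4 clustered genes with both motifs, Mmp13 among them, and for Mmp27, which has neither. Of these 4, Mmp3 had 0 counts in both neonatal libraries and 3 in each adult one, and Mmp10 had 0 in all. Mmp8, with more counts in neonates, had the TATA motif without the AP-1-type motif. Each line gives the 160 bases that end just before the start, 5′ to 3′, with the matches in capitals, at chr8:12782669-12782828, plus strand for Mmp13, chr8:12866492-12866651, plus strand for Mmp12, chr8:12925121-12925280, plus strand for Mmp3, chr8:12974547-12974706, plus strand for Mmp10 and chr8:13030592-13030751, plus strand for Mmp27.
Mmp13: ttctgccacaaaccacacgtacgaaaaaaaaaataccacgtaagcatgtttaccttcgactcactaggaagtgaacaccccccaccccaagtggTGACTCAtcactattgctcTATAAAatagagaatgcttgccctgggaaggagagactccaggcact
Mmp12: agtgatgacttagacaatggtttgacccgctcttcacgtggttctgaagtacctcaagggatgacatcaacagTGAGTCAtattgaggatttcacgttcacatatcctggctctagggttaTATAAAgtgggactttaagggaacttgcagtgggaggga
Mmp3: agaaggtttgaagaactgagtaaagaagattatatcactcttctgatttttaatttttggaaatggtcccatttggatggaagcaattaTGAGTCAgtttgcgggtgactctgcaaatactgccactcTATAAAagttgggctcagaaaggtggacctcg
Mmp10: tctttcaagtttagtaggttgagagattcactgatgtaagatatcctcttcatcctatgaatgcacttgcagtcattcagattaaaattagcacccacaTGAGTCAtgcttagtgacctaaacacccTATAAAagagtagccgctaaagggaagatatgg
Mmp27: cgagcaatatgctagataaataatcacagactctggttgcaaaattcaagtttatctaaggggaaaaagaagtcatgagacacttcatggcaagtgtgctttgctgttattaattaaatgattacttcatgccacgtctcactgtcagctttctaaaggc

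In Mmp13 the AP-1-type motif began 66 bases and the TATA motif 47 bases before the start. These distances were 87 and 39 bases in Mmp12, 71 and 32 in Mmp3, and 61 and 33 in Mmp10. For comparison, the same stretch is shown for a pair of genes higher in adults, Timp3 (chr7:19459559-19459718, minus strand) and Adamtsl3 (chr1:145697844-145698003, plus strand), and a pair higher in neonates, Timp1 (chrX:3771123-3771282, minus strand) and Adamtsl2 (chr3:30802540-30802699, plus strand), with GC boxes and TATA motifs in capitals.
Timp3: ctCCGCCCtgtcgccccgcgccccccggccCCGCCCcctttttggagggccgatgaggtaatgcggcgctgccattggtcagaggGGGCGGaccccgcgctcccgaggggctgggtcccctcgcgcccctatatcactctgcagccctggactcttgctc
Adamtsl3: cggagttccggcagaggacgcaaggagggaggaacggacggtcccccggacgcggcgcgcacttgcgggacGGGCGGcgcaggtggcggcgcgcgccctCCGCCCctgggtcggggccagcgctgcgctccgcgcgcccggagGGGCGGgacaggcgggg
Timp1: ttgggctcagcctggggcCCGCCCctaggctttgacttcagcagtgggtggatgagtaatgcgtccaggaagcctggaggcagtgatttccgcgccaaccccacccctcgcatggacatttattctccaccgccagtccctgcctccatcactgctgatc
Adamtsl2: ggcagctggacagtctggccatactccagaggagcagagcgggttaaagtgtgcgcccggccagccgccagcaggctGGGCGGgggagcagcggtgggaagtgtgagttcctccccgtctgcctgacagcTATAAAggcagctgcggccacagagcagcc

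Timp3 and Adamtsl3 each held 3 GC boxes in this stretch, Timp1 held 1, and Adamtsl2 held 1 together with a TATA motif 30 bases before its start. GC boxes were thus found on both sides of the comparison between ages. The genes shown do not stand for all genes of their side. In all bases searched before each start, Timp4, Adamts12 and Adamts17, called as higher in adults, held no GC box. Adamts1, Adamts2, Adamtsl4 and Timp2, which passed toward adults, held a GC box. So did Adamts10, Adamts14, Mmp11 and Mmp23, which passed toward neonates, while Adamtsl5 did not. A difference between the sides was not tested.

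Among the ADAMTS proteinases 4 of 17 tested were called and 8 passed an adjusted p under 0.05, 6 toward adults and 2 toward neonates. The shares were 23.5% called, against 20.8% of all genes tested, and 47.1% passing, against 62.3%. Adamts17, which is linked to the fibrillin microfibrils of connective tissue, had the largest fold change of the 39 genes tested. It was at 0.674 and 0.889 CPM in neonates, or 24 and 32 counts, and at 4.65 and 7.31 CPM in adults, 7.62-fold higher (log2 fold change -2.93, SE 0.35, adjusted p = 0.00013 in edgeR's test). Adamts10, which also acts on fibrillin microfibrils, went the opposite way, with 275 and 260 CPM in neonates and 157 and 203 CPM in adults (log2 fold change 0.57, SE 0.12, adjusted p = 0.0025 in edgeR's test).

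The 7 proteinases that cut large proteoglycans were all tested, 2 were called, and 3 passed, all toward adults. The shares were 28.6% called, against 20.8% of all genes tested, and 42.9% passing, against 62.3%. Adamts15 had 21.9 and 23.4 CPM in neonates and 44.9 and 69.2 CPM in adults, 2.52-fold (log2 fold change -1.33, SE 0.18, adjusted p = 0.00023 in edgeR's test). The adult libraries were far apart here, and without adult replicate 2 the log2 fold change was -0.99, under the 2-fold limit. Adamts5, the main aggrecanase of cartilage, had 5.81 and 6.22 CPM in neonates and 12.1 and 15.5 CPM in adults, 2.29-fold (log2 fold change -1.20, SE 0.19, adjusted p = 0.00065 in edgeR's test). Adamts1, its neighbour in the genome, which cuts versican, was higher in adults by less, at 38.5 and 57.6 CPM against 69.7 and 84.6 CPM (log2 fold change -0.68, SE 0.17). Adamts4, Adamts8, Adamts9 and Adamts20 did not pass, with log2 fold changes of 0.19, 0.47, -0.13 and -0.29. Adamts20 differed within the neonates, at 2.47 and 6.80 CPM, and without neonate replicate 2 its log2 fold change was -1.19 (adjusted p = 0.015 in edgeR's test).

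Adamts12, which degrades a cartilage matrix protein and other glycoproteins, had 36.4 and 43.2 CPM in neonates and 81.3 and 107 CPM in adults. It was 2.37-fold higher in adults, the log2 fold change being -1.24 (SE 0.14, adjusted p = 9.1e-05 in edgeR's test). Adamts7, a close relative of Adamts12, did not pass, at 21.7 and 24.8 CPM against 17.6 and 21.3 CPM. Of the procollagen N-proteinases, which remove the amino-terminal propeptide of fibrillar collagens, Adamts2 and Adamts14 moved in opposite directions. Adamts2 had 68.1 and 78.3 CPM in neonates and 123 and 146 CPM in adults (log2 fold change -0.88, SE 0.10, adjusted p = 0.00012 in edgeR's test). Adamts14 had 6.80 and 7.47 CPM in neonates and 3.52 and 4.57 CPM in adults (log2 fold change 0.82, SE 0.24, adjusted p = 0.016 in edgeR's test), and it no longer passed without adult replicate 1 (adjusted p = 0.13) or with library size alone (adjusted p = 0.070). Adamts3, under the filter, had 39 and 50 counts in neonates and 19 and 35 in adults, and Adamts18 had 19 and 52 against 13 and 26. The remaining Adamts6, Adamts13, Adamts16 and Adamts19 did not pass. Adamts6 was at 2.16 and 0.833 CPM in neonates against 2.23 and 2.87 CPM, and without neonate replicate 1 its log2 fold change was -1.61 (adjusted p = 0.0062 in edgeR's test).

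All 4 ADAMTS-like genes passed, 2 in each direction, beside 62.3% of all genes tested. Adamtsl3 had 5.39 and 5.47 CPM in neonates and 20.3 and 25.4 CPM in adults, 4.21-fold higher, the log2 fold change being -2.07 (SE 0.16, adjusted p = 1.4e-05 in edgeR's test). Adamtsl4, which binds fibrillin and is needed for the fibres that hold the eye's lens, was higher in adults too, at 68.8 and 70.8 CPM against 101 and 123 CPM (log2 fold change -0.68). Adamtsl2, which binds fibrillin and a protein that stores latent TGF-beta, showed the largest neonatal excess of the 39 genes tested, at 147 and 137 CPM in neonates and 72.1 and 73.0 CPM in adults. The libraries of an age were close to each other, and the 1.96-fold difference had a log2 value of 0.97 (SE 0.076, adjusted p = 1.5e-05 in edgeR's test). Adamtsl5 was higher in neonates by 0.40 on the log2 scale (adjusted p = 0.030 in edgeR's test), with 23.3 and 27.1 CPM against 16.9 and 21.2 CPM, and it did not pass without neonate replicate 2 (adjusted p = 0.14), without adult replicate 1 (0.19), with library size alone (0.37), with no filter on low counts (0.05) or with a mean of at least 5 CPM (0.051).

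Of the lysyl oxidases, Loxl2, which crosslinks basement membrane collagen, was the one called. It had 1.77 and 1.30 CPM in neonates, from 63 and 47 counts, and 5.56 and 8.50 CPM in adults, from 227 and 338 counts. The adult level was 4.56-fold higher, the log2 fold change being -2.19 (SE 0.32, adjusted p = 0.00037 in edgeR's test). Lox, the founding member, had 65.1 and 89.1 CPM in neonates and 95.6 and 113 CPM in adults, the log2 fold change being -0.43 (SE 0.14, adjusted p = 0.025 in edgeR's test). The ages did not overlap for Lox, but it did not pass without neonate replicate 1 (adjusted p = 0.13) or without adult replicate 2 (adjusted p = 0.12). Loxl1, which acts on elastin, had 53.1 and 62.9 CPM in neonates and 66.0 and 66.8 CPM in adults and did not pass (log2 fold change -0.19, adjusted p = 0.12 in edgeR's test), although it did with library size alone (log2 fold change -0.44, adjusted p = 0.0086) and without neonate replicate 2 (-0.31, adjusted p = 0.022). Loxl3 differed little, at 21.1 and 22.3 CPM against 19.1 and 20.5 CPM, the log2 fold change being 0.13 (SE 0.11), and its sign turned with library size alone. Loxl4 was under the filter, with 5 and 0 counts in neonates and 22 and 29 in adults, and its adjusted p was 0.052 in edgeR's fit with no filter on low counts.

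Other genes of matrix remodelling were read from the same fit, as 42 genes in 5 lists, of which 41 were tested. Of these, 9 were called, 5 toward adults and 4 toward neonates (22.0%, against 20.8% of all genes). In all, 15 passed toward adults and 13 toward neonates (68.3%, against 62.3% of all genes). Of 13 activators and other inhibitors of the proteinases, 7 passed toward adults and 1 toward neonates, together 61.5%, near the 62.3% of all genes tested, which were split evenly by direction (31.1% and 31.2%). Serpine2, an inhibitor of serine proteinases, was higher in neonates, at a log2 fold change of 0.60. Plau, the urokinase that starts plasmin formation, was higher in adults at -0.92.

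The tolloid proteinases, which cut the other end of procollagen and activate Lox, were split. Tll1 was at 1.91 and 2.58 CPM in neonates and 8.05 and 10.8 CPM in adults, 4.19-fold higher in adults (log2 fold change -2.07, adjusted p = 0.00021 in edgeR's test), whereas Bmp1 was higher in neonates, at 317 and 317 CPM against 185 and 233 CPM (log2 fold change 0.60), as was its enhancer Pcolce (0.40). Of the enzymes that modify collagen before or beside lysyl oxidases, P4ha1, a prolyl hydroxylase subunit, was higher in adults (log2 fold change -1.07) and its relative P4ha3 higher in neonates (1.72, at most 2.83 CPM). Tgm2, a transglutaminase, was higher in adults at -0.74 without being called, and Plod1, a lysyl hydroxylase, was higher in neonates at 0.25.

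Of 14 lysyl oxidase substrates and elastic fibre genes, 2 passed toward adults (Col5a1 and Fbn1, at -0.71 and -0.46) and 6 toward neonates. Together they were 57.1% passing, against 62.3% of all genes tested, and 14.3% were called, against 20.8%. The 2 called, Postn and Mfap4, were higher in neonates. Postn, a matricellular protein that binds collagen, had 1503 and 1745 CPM in neonates and 273 and 315 CPM in adults, 5.53-fold (log2 fold change 2.47, adjusted p = 1.9e-06 in edgeR's test). Mfap4, a microfibril protein with estimated counts that were not whole, was 5.32-fold higher in neonates, at 101 and 137 CPM against 22.0 and 22.9 CPM. Eln, elastin itself, did not pass, with 1761 and 2276 CPM against 1888 and 2109 CPM, and neither did Col1a1, at a log2 fold change of -0.13.

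The hyalectans, the large proteoglycans cut by several Adamts enzymes, also went both ways. Vcan, or versican, whose estimated counts were not whole, had 93.8 and 94.2 CPM in neonates and 38.5 and 53.3 CPM in adults, 2.05-fold higher in neonates (log2 fold change 1.03, SE 0.14, adjusted p = 0.00022 in edgeR's test). Acan, or aggrecan, was scarce and higher in adults, at 0.674 and 0.444 CPM against 2.94 and 2.21 CPM (log2 fold change -2.20, adjusted p = 0.0014 in edgeR's test). Bcan, with counts that were not whole, was higher in adults as well, at -1.16, and Ncan did not pass.

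**Figure D4:**
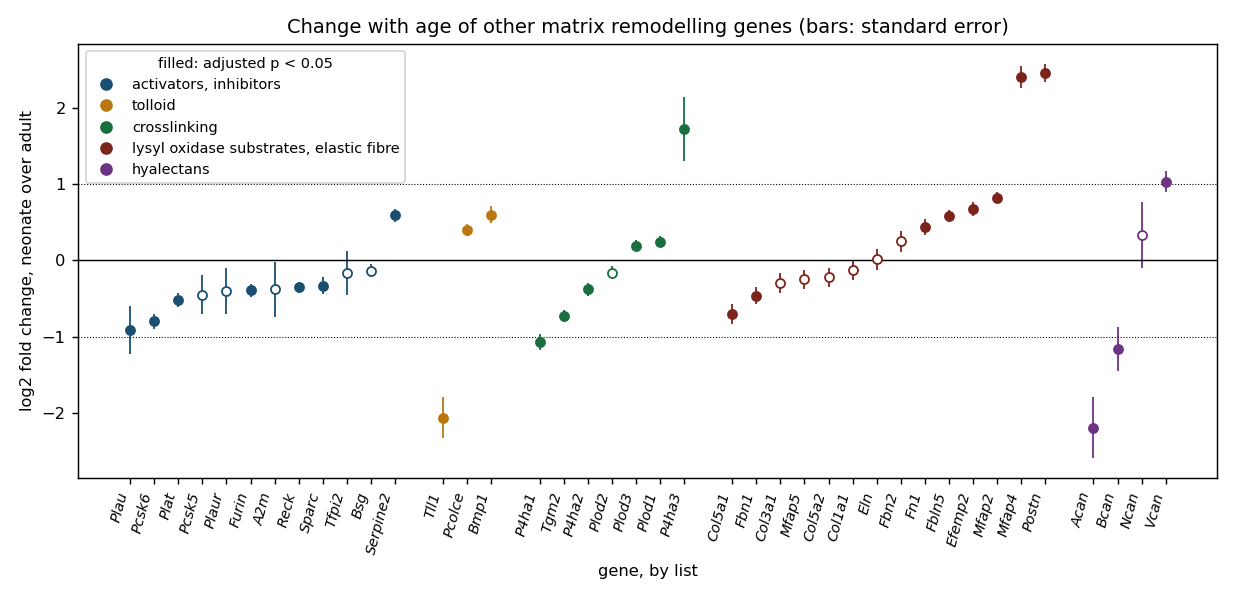
Log2 fold change (neonate over adult) of the other matrix remodelling genes tested, 1 of which is left out, by list and ordered by value, with bars for the standard error, filled points for an adjusted p under 0.05 and dotted lines at 2-fold. Postn and Mfap4 stand highest toward neonates, and Acan and Tll1 lowest, toward adults.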

How the data were processed

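RNA was extracted from pooled CBs, and libraries were made after poly A+ selection and sequenced as paired ends. The authors trimmed the reads, aligned them with STAR to the rat reference Rnor_6.0 and quantified them with Salmon (1.5.2 in the submitters' processing notes). The authors deposited estimated counts per gene, neither normalized nor filtered. Each library was a pool labelled as a separate biological replicate and was counted as 1. As a check that none was deposited in duplicate, the chi-square per degree of freedom between replicates was 32.6 in neonates and 15.4 in adults.

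After rounding, all genes were fitted together with edgeR 4.0.16 under R 4.3.3. By symbol in the RefSeq table of GRCr8, 642 genes of another biotype than protein-coding were left out, as were those that reached 1 CPM in fewer than 2 libraries. A further 13665 listed genes had no match there and were not left out on that ground. The genes tested thus need not all be protein-coding, while all 54 family members had a match. The quasi-likelihood test had age as its only term and used TMM factors. Standard errors are the log2 fold change divided by the square root of the quasi-likelihood F. With 2 libraries per age, p-values rest on a spread shared across genes. Fits were tested on simulated data. Alternatives were DESeq2 1.42.0, limma-voom (limma 3.58.1), other normalizations and filters, a 1.5-fold limit, a replicate block and each library left out.

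Genes described with values are those called, all Timp, Lox and Loxl genes, Mmp2, Mmp9 and Mmp14, those that a count of 5 or fewer singles out, untested genes with at least 10 counts in a library, and the called or largest of the other lists. The families and lists were chosen with earlier results of these data known. Lists were set by symbol from textbook roles, and Mmp1b was placed with Mmp1 after the data were seen. Promoter sequences and gene order come from RefSeq (GRCr8), another assembly than that of the reads, and gene lengths were not used here, so levels are not compared between genes. Some genes of these lists are not reported here, while the list counts include them.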

Additional observations from a re-analysis of the deposited data

How the results depend on the processing

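Of 289 values recomputed under the alternatives, 271 kept their direction and side of the threshold, or stayed within 1.5 times for counts and within the spread of libraries for the median. The 8 called family members all stayed called with limma-voom, DESeq2, library size alone, RLE size factors, no filter on low counts, all genes kept, the replicate block, and without neonate replicate 1, neonate replicate 2 or adult replicate 1. Without adult replicate 2, 7 did (Adamts15 fell under 2-fold), and with a mean of at least 5 CPM 6 did, Adamts17 and Loxl2 not being tested there. The number called ran from 7 to 11. Mmp14, Mmp17 and Adamts2 were added with library size alone, where the median of the families was -0.485. With no filter on low counts Mmp13, Mmp17 and Mmp27 were added, and with a mean of at least 5 CPM Mmp17 was. The log2 fold change of Mmp17 was -1.12 without neonate replicate 2 and -1.15 without adult replicate 1, past 2-fold in both. A mean of at least 5 CPM gave 1823 calls over all genes, a median of -0.325 for the families and 5 called genes in the other lists. A 1.5-fold limit gave 5483 calls over all genes, 17 in the families and 18 in the other lists. Calls toward neonates in the families rose to 1 with no filter on low counts (Mmp13) and ran from 0 to 1 with a library left out. Members that passed toward neonates without a fold limit numbered 4 with library size alone and from 4 to 8 with a library left out. The median of the families ran from -0.226 to -0.186 with a library left out. The log2 fold change of Loxl3 was -0.113 with library size alone. Of the 24 members that passed, 19 passed under every alternative that tested them. The 15 untested members had too few counts for the filter, and differences in them may not be detectable at this depth. With the replicate block, 8 family members were called and 25 passed. The labels give no link between same-numbered libraries beyond the number. Their deviations had a correlation of -0.0157 across 13838 genes, which are not independent. With 2 libraries per age, this value cannot decide whether same-numbered libraries were paired.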

Other observations

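Ratios of estimated counts within a library compare a pair of genes without any scaling between libraries. They depend on gene length too, so only their change between ages can be read, and they were chosen after the data were seen and not tested. Timp3 over Timp1 was 0.858 and 0.954 in neonates and 3.98 and 4.21 in adults. Mmp14 over Timp2, the enzyme and inhibitor that together activate the precursor of Mmp2, was 0.664 and 0.612 in neonates and 0.884 and 0.941 in adults, whereas Mmp2 over Timp2 was 1.99 and 1.74 against 1.70 and 1.89 and overlapped between ages. Mmp14 over Timp3 went down, from 0.993 and 0.926 to 0.586 and 0.606, and Mmp14 over Timp1 went up, from 0.852 and 0.883 to 2.34 and 2.55. The direction of the Mmp14 ratio with age thus differed with the Timp gene chosen, and no ratio to Timp4 was computed. A ratio of counts does not measure inhibition, nor does it show which Timp proteins inhibit Mmp14. Adamts2 over Col1a1, a procollagen N-proteinase over its main substrate, was 0.0131 and 0.0124 in neonates and 0.0197 and 0.0231 in adults.

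Neighbouring genes of the families did not all move alike. Adamts1 and Adamts5, with 0 protein-coding genes between them in the RefSeq table of GRCr8, were both higher in adults, at log2 fold changes of -0.68 and -1.20. Adamts15 and Adamts8, also with 0 genes between them, were at -1.33 and 0.47, of which the second did not pass the test.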
